A study of Mus musculus with 32 samples.

Results

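The 6 arrays with the strain label R2 were compared with the 6 arrays labelled D2, which made up 12 of the 32 arrays of the series. D2 is the DBA/2J background strain. R2 is a congenic line in which a segment of distal chromosome 1 from C57BL/6J (B6) replaces the D2 segment on the D2 background. Its maximal limits, as the methods give them on GRCm38, lie at 164.1 and 174.6 Mb, a length of 10.5 Mb. All 12 animals were naïve adult males, and total RNA of whole brain was hybridized to an Illumina bead array with 1 animal per array. The R2 animals came from 1 congenic line, so a difference between the groups belongs to that line and its breeding as well as to the segment. The other 20 arrays, 10 of B6 and 10 of R8, were used only to place the R2 and D2 levels. R8 carries a shorter D2 segment, with maximal limits at 170.4 and 172.14 Mb, on the B6 background, and this stretch lies inside the R2 segment.

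A congenic line helps to separate a local from a distant effect of a segment. A gene inside the segment can differ from the background strain through its own allele, in its promoter, its splice sites or its transcript. Such a difference is called a cis effect. It can also differ through another gene of the segment or through differences between the animals. The comparison of R2 with D2 cannot tell these apart, and cis is used here for position in the segment. A gene on another chromosome carries the same allele in both strains, apart from stray donor sequence, and can differ only through the product of a gene in the segment or through differences between the animals. An array probe adds a further possibility, since a base that differs between B6 and D2 under the probe alters hybridization. Probe sequences were not compared with the sequence of D2, so the part of such bases in any cis difference was not tested.

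Of 25697 probes, 11455 were detected, with a detection p-value under 0.01, in at least 6 of the 12 arrays, and these were tested. The median signal of an array was 396.4 to 558.3 in R2 and 424.7 to 535 in D2, and 10834 to 11569 probes were detected per R2 array against 11267 to 11949 per D2 array. Both ranges overlapped between the strains. D2 replicate 1 stood apart from the other arrays. Its mean correlation with the rest was 0.9765 against 0.9873 to 0.9905, and its score on the first principal component, which held 31% of the variance, was 33.7 against −7.37 to 10.3. R2 replicate 3 stood apart in another way, inside the segment. On a scale where 0 is the mean of D2 and 1 the mean of the other R2 arrays, it lay at a median of 0.546 (range 0.331 to 0.906) over the 12 segment probes that passed the test below, and it was the R2 array nearest to D2 in 12 of 12. The other R2 arrays had medians of 1.03 to 1.12 on the same scale. On the mirrored scale, with R2 at 0 and the other D2 arrays at 1, D2 replicate 4 had a median of 0.683. It was the D2 array nearest to R2 in 6 of 12. Over the 217 genes outside the segment with an unadjusted p under 0.01 the median of R2 replicate 3 was 0.934, although at single genes elsewhere it also lay near D2, as given below. The cause was not tested, and each main count is given with and without D2 replicate 1 and R2 replicate 3.

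The strain labels were checked on probes that differed at least 2-fold between D2 and B6. R2 was nearer to B6 in 4 of 4 such probes in the segment and in 2 of 282 placed elsewhere, which were those of the pituitary hormones Prl and Gh. Among the tested defining markers of neurons, astrocytes, oligodendrocytes, microglia, endothelium, choroid plexus and red cells, 0 differed at an unadjusted p under 0.05. The mean level of the microglial markers was 9.79 to 9.97 in R2 and 9.80 to 9.98 in D2 on the log2 scale.

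Genes of the segment differed far more often than the rest of the genome. With limma and an adjusted p under 0.05 over all tested probes, 18 probes passed, 0.157% of those tested. Of these, 13 (0.113%) were higher and 5 (0.0436%) lower in R2, and 12 of the 18 lay in the segment. Of the 116 genes of the segment with a probe on the array, 44 were tested and the levels of the other 72 were too low for the detection filter. Among the 44 genes, 12 passed the test, 8 higher and 4 lower in R2. The methods used an unadjusted p of 0.01 as their limit. Below it lay 21 of the 44 genes (47.7%), 14 higher and 7 lower, against 2.68% of genes placed elsewhere and 2.72% of all tested probes. In 17 of the 44 (38.6%) the strains did not overlap, against 0.9% of genes elsewhere and 0.986% of all tested probes. In these last shares and in the medians a gene stands by its brightest probe. The median size of the difference was 0.227 on the log2 scale in the segment and 0.0878 elsewhere.

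**Figure D1:**
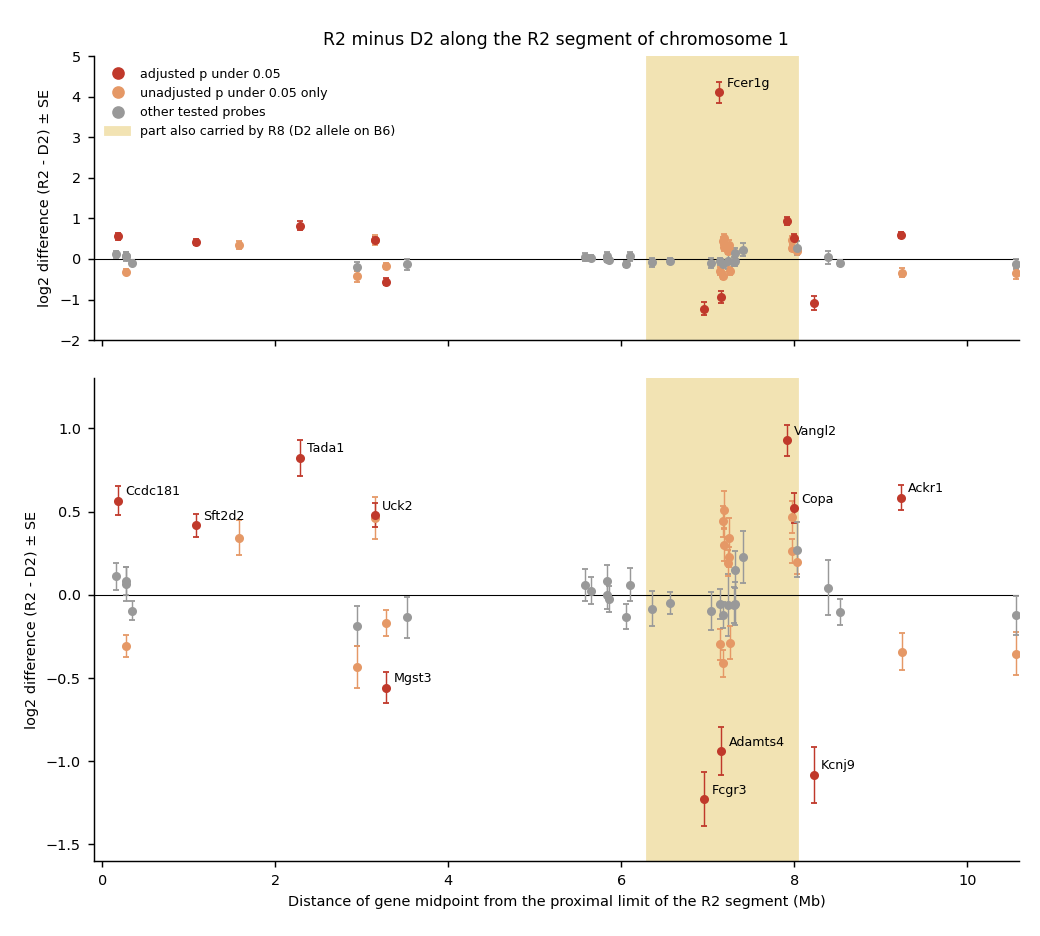
Difference between R2 and D2 (log2 scale, ± SE, 6 arrays per strain) for each tested probe of the R2 segment, against the distance of the gene's midpoint from the proximal limit in Mb; the lower panel enlarges the range around 0 and leaves out Fcer1g. The probes that passed the test lie on both sides of a gap between Mgst3 and Fcgr3, where none passed. The shaded stretch that R8 also carries holds 5 of the 12, among them Fcer1g. Fcer1g is plotted at its fitted value although D2 has only a bound (at least 4.65-fold).

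The calls were spread over the whole length of the segment, as the plot of differences along it shows. The stretch proximal to the part shared with R8 held 17 tested genes, of which 5 passed the test and 6 (35.3%) had an unadjusted p under 0.01. The part shared with R8 held 21 tested genes, of which 5 passed and 12 (57.1%) had an unadjusted p under 0.01. In the distal stretch 34 of 40 genes on the array were not tested, and 2 of the 6 tested passed. Without R2 replicate 3 the count in the segment was 13, without D2 replicate 1 it was 10, and without both it was 13.

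Fcer1g encodes the gamma chain that Fc receptors and other immune receptors share for signalling, and in the brain it is known from microglia. Fcer1g (chr1:171229572-171234349) read 9.36, 10.26 and 10.64 as the lowest, median and highest log2 signal of the R2 arrays and 5.68, 5.83 and 7.35 in D2. All 6 R2 arrays lay above all 6 D2 arrays, the lowest R2 array being replicate 3 and the highest D2 array replicate 4. The probe was detected in 6 of 6 R2 arrays and in 0 of 6 D2 arrays, so the D2 level has only an upper bound and R2 was at least 4.65-fold higher (fitted difference 4.11 ± 0.26 SE on the log2 scale, limma adjusted p = 1.02e-06). In linear signal R2 replicate 3 stood at 0.512 of the other R2 arrays. In whole-brain RNA, fewer cells of a type and less RNA per cell cannot be told apart. The microglial markers, given above, had like ranges in both strains.

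The 200 bases before the start of Fcer1g, the gene with the largest difference, are shown for reference (RefSeq, GRCm38.p6, chr1:171234350-171234549, minus strand). Capitals mark GGAA, the core of the motif that ETS factors such as PU.1 of microglia and other myeloid cells bind, on either strand.
Fcer1g: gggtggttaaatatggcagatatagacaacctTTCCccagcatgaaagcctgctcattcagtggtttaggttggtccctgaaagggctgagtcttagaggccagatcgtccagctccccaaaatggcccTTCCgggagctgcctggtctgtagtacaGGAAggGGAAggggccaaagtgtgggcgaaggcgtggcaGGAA
The 4 letters occur 5 times in this stretch. They also occur in 96.0% of all 32851 mouse promoters of 300 bases (250 before and 50 after the start), so their presence is a description only. The sequence is that of the reference strain, B6, and it was not compared with the D2 allele.

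Fcgr3, the low-affinity receptor for IgG that signals through the same gamma chain, went the other way. The log2 signal of Fcgr3 (chr1:171051169-171065915) was 7.77, 8.00 and 8.71 in R2 and 8.81, 9.35 and 9.83 in D2 (lowest, median and highest). All R2 arrays lay below all D2 arrays, and R2 was 2.34-fold lower (−1.23 ± 0.16, limma adjusted p = 0.00362). The probe was detected in 3 of 6 R2 arrays against 6 of 6 D2 arrays. Adamts4 (chr1:171250129-171262267), a protease that cuts aggrecan and other proteoglycans of the matrix, lies next to Fcer1g. Its signal was 9.53, 9.86 and 10.50 in R2 and 10.60, 10.85 and 11.13 in D2, again without overlap, and it was 1.92-fold lower in R2 (−0.94 ± 0.15, limma adjusted p = 0.0129).

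Vangl2 and Copa lie at the distal end of the part shared with R8. Vangl2 (chr1:172000960-172027318), a membrane protein of the planar cell polarity pathway that orients cells within a sheet, had log2 signals of 9.99, 10.19 and 10.36 in R2 and 8.99, 9.25 and 9.50 in D2. The strains were clearly apart, and R2 was 1.9-fold higher (0.93 ± 0.09, limma adjusted p = 0.000303). Copa (chr1:172082529-172122332), the alpha subunit of the COPI coat that carries cargo from the Golgi back to the endoplasmic reticulum, read 12.50, 12.75 and 12.80 in R2 and 11.95, 12.24 and 12.38 in D2. Replicate 3 was the lowest R2 array and still above every D2 array. Copa was 1.44-fold higher in R2 (0.52 ± 0.09, limma adjusted p = 0.0286), although it passed in only 4 of the 12 fits that left out 1 array.

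Proximal to the shared part, 4 genes were higher in R2 and 1 lower. Tada1 (chr1:166379167-166393621), an adaptor subunit of the SAGA complex that acetylates histones, had log2 signals of 11.12, 11.49 and 11.62 in R2 and 10.34, 10.62 and 10.90 in D2. The R2 arrays were all above the D2 arrays, by 1.77-fold on average (0.82 ± 0.11, limma adjusted p = 0.00362). Ccdc181 (chr1:164275598-164287847), a coiled-coil protein known from cilia and sperm flagella, read 11.76, 11.91 and 11.99 in R2 and 10.99, 11.40 and 11.49 in D2, a 1.48-fold rise (0.57 ± 0.09, limma adjusted p = 0.0124). Sft2d2 (chr1:165174341-165194522), a membrane protein of vesicle transport, read 10.50, 10.63 and 10.78 in R2 and 10.08, 10.21 and 10.31 in D2, 1.34-fold higher (0.42 ± 0.07, limma adjusted p = 0.0177). Neither gene overlapped between the strains, but Sft2d2 passed in only 6 of the 12 fits without 1 array.

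Uck2 and Mgst3 each had a second tested probe that did not pass. Uck2 (chr1:167222895-167285933), the uridine-cytidine kinase that salvages pyrimidine nucleosides, had log2 signals of 10.78, 11.04 and 11.13 in R2 and 10.43, 10.52 and 10.64 in D2. All R2 arrays were higher, 1.39-fold on average (0.48 ± 0.07, limma adjusted p = 0.0116), and the second probe differed by 0.46 (adjusted p = 0.278). Mgst3 (chr1:167371966-167393841), a microsomal glutathione transferase, had signals of 12.25, 12.51 and 12.73 in R2 and 12.81, 13.13 and 13.23 in D2. All R2 arrays were lower, 1.47-fold on average (−0.56 ± 0.09, limma adjusted p = 0.0217). The brighter probe of Mgst3 differed by only −0.17 (adjusted p = 0.42), and the probe that passed did so in 3 of the 12 fits without 1 array.

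In the distal stretch 1 gene was lower and 1 higher in R2. Kcnj9 (chr1:172320508-172329322), which encodes GIRK3, a subunit of the potassium channels that G protein-coupled receptors open in neurons, had log2 signals of 7.36, 7.58 and 8.36 in R2 and 8.43, 8.70 and 9.24 in D2. The highest R2 array, replicate 3, lay just below the lowest D2 array, and R2 was 2.12-fold lower (−1.08 ± 0.17, limma adjusted p = 0.0129). The probe was detected in 1 of 6 R2 arrays and 6 of 6 D2 arrays, so this fold rests on R2 signals that were mostly not above background. Ackr1 (chr1:173331886-173333503), the atypical receptor that binds chemokines without signalling, read 12.41, 12.44 and 12.54 in R2 and 11.70, 11.87 and 12.04 in D2. The R2 arrays lay close together and above all D2 arrays, 1.5-fold higher on average (0.58 ± 0.07, limma adjusted p = 0.00361).

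**Figure D2:**
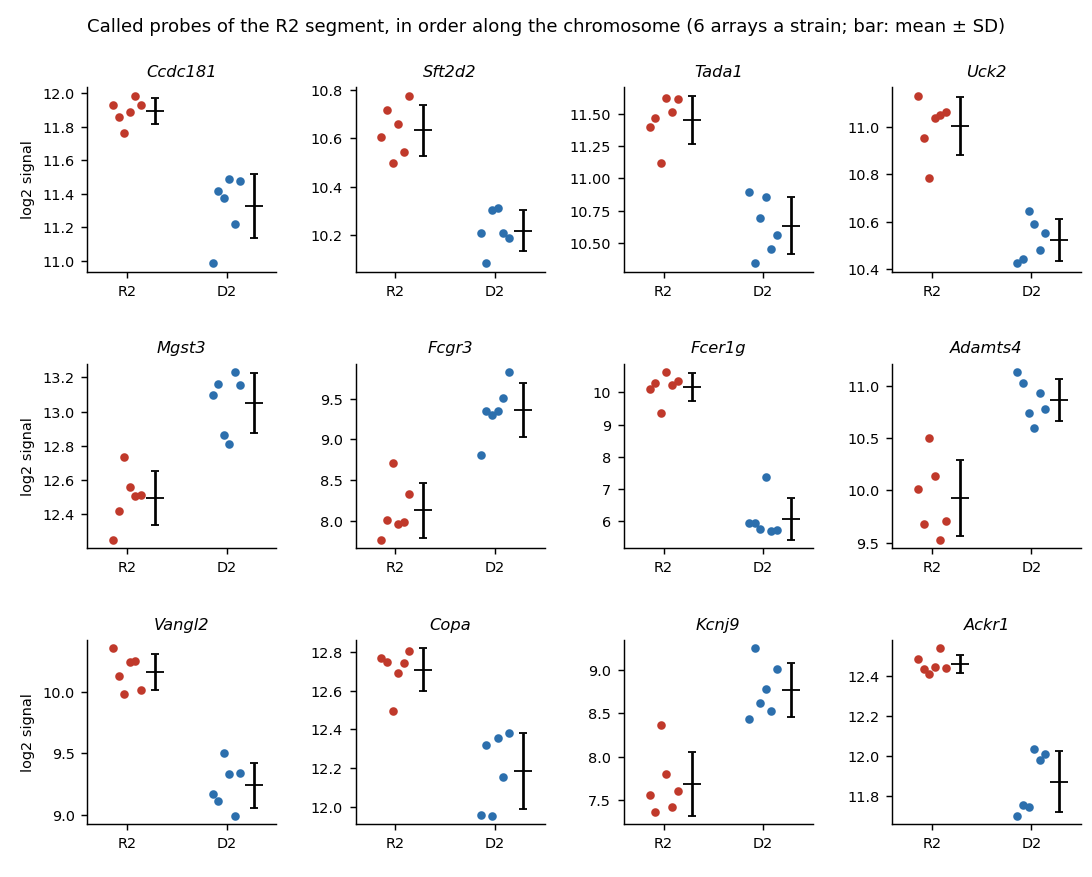
Log2 signal of the 12 segment probes that passed the test in each of the 6 R2 (red) and 6 D2 (blue) arrays, in order along the chromosome, with the mean ± SD beside the points; the axes do not start at 0. In each panel the strains do not overlap, and the R2 array nearest to D2 is replicate 3 in 12 of 12.

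A further 13 genes of the segment had an unadjusted p under 0.05 but did not pass the adjusted test, and most of them lay within the part shared with R8. Differences with no overlap between the strains were seen for Ncstn, the nicastrin subunit of gamma-secretase, on both of its probes (0.47 and 0.26, limma adjusted p = 0.0967 and 0.26). The same held for Usp21, a deubiquitinase (0.51, adjusted p = 0.121), and for Ppox, an enzyme of haem synthesis (0.44, adjusted p = 0.111). Nit1, an amidase, was higher in all R2 arrays on its brighter probe (0.23, adjusted p = 0.251) and overlapped on the other (0.34). B4galt3, a galactosyltransferase of the Golgi, was lower in all R2 arrays (−0.41, adjusted p = 0.0784), and Nme7, a member of the nucleoside diphosphate kinase family, was too (−0.31, adjusted p = 0.117). Without R2 replicate 3 the difference of B4galt3 was −0.46 with a limma adjusted p of 0.0208. That array was singled out in these same data, so this value is a description and adds no support. Nme7 had 2 further probes, which read 0.08 and 0.07, and the second probe of B4galt3 read −0.12.

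The smaller differences of this kind ran both ways. Higher values were measured for Rcsd1, a protein of the actin-capping machinery (0.34), Ufc1, the conjugating enzyme of the ubiquitin-like modifier UFM1 (0.30), Pex19, an import factor of peroxisomal membrane proteins (0.20), and Dedd, a death effector domain protein (0.19). Lower values were measured for Cadm3, a neuronal cell adhesion molecule (−0.34), and Pfdn2, a subunit of the prefoldin chaperone (−0.29). The limma adjusted p of these 6 genes was 0.312 or more. Some neighbours shared a direction and others did not. Ppox, Usp21, Ufc1, Dedd and Nit1 follow each other on the chromosome and were all above 0, as were Vangl2, Ncstn, Copa and Pex19. Ackr1 and Cadm3 overlap on the chromosome and had opposite signs, and so did the overlapping pair Nit1 and Pfdn2 and the adjacent pair B4galt3 and Ppox.

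The remaining 19 tested genes had differences between −0.188 and 0.226. Among them were Rgs4 (0.03) and Rgs5 (0.06), regulators of G protein signalling. Nos1ap, the adaptor of neuronal nitric oxide synthase, read −0.08, Atp1b1, the beta subunit of the sodium pump, −0.09, and Sdhc, a subunit of complex II, −0.10. Among the tested transcription factor genes, Rxrg, a retinoid X receptor, and Usf1 read −0.14 and 0.15. Others of the segment, such as Lmx1a, Tbx19, Nr1i3 and Nhlh1, were not detected and so not tested. Values below 0 were also measured for the brighter probe of Fam78b (−0.19), Uap1 (−0.13), Dusp23 (−0.11), Arhgap30 (−0.06), Olfml2b (−0.05) and Hsd17b7 (−0.03). Values above 0 were measured for Alyref2 (0.23), Ccdc190 (0.08), Uhmk1 (0.06) and Igsf9 (0.04). The dimmer probe of Fam78b read −0.43 (limma adjusted p = 0.289), with R2 replicate 3 as the R2 array highest above the rest. Fmn2, a formin that nucleates actin, crosses the distal maximal limit, and its brighter probe read −0.12 and its dimmer probe −0.35 (limma adjusted p = 0.386). Slc19a2 (0.11), a thiamine transporter, and Ccdc181 lie between the maximal and the minimal proximal limits, a stretch whose origin the markers leave unsettled.

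Just outside the limits no difference passed the test. The nearest tested genes were Kifap3 (−0.12), Scyl3 (0.11) and Mettl18 (0.03) on the proximal side and Rgs7 (−0.01), Fh1 (−0.02) and Opn3 (−0.11) on the distal side. Of the 16 and 35 genes tested in the 10 Mb beyond each limit, 0 passed the test and 0 had an unadjusted p under 0.01, and the largest differences were 0.288 and 0.326 in size.

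Levels in B6 and R8 placed the 12 probes of the segment. After all 32 arrays had been normalized together, the mean of R2 was nearer to B6 than that of D2 in 12 of 12, and R2 did not pass a test against B6 in 11 of them. The exception was Uck2, which was 0.15 higher in R2 than in B6 (limma adjusted p = 0.0296). For the 5 of these probes in the part shared with R8, levels went by the allele on both backgrounds. Not every other gene of that part did so. The brighter probe of Pex19 read 12.53 in R2, 12.54 in B6 and 12.61 in R8 against 12.33 in D2. Pex19 reaches past the minimal distal limit of R8. The mean log2 signal of Fcer1g was 10.19 in R2 and 10.42 in B6, which carry the B6 allele, and 6.06 in D2 and 5.79 in R8, which carry the D2 allele. For Vangl2 the same means were 10.19 and 9.97 against 9.27 and 9.21. Adamts4 ran the other way, at 9.96 and 9.77 against 10.89 and 11.14. Outside that part R8 carries the B6 allele and was near B6, as for Ackr1, with 12.47 in R2, 12.56 in B6 and 12.63 in R8 against 11.89 in D2.

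The difference between R2 minus D2 and B6 minus R8 was tested over all 4 strains. In the stretch that R8 carries, it sets the effect of the B6 against the D2 allele on one background against that on the other. Elsewhere in the segment B6 and R8 share the B6 allele, so there it holds no second allele effect, and outside the segment the 2 lines differ in the length of their segments as well as in background. Of 12351 probes in that fit, 14 passed (0.113%). They included 7 probes of the segment, which were Tada1 (0.93), Ackr1 (0.65), Uck2 (0.59), Ccdc181 (0.59), Sft2d2 (0.44), Mgst3 (−0.60) and Kcnj9 (−1.33). These 7 genes lie outside the stretch that R8 carries, and for them the value is mostly R2 minus D2. It also holds B6 minus R8, which ran from −0.11 for Uck2 to 0.25 for Kcnj9. Within that stretch 0 passed, and Copa, for example, differed by 0.52 between R2 and D2 and by 0.43 between B6 and R8. Fcer1g was detected in 0 of 6 D2 arrays and 0 of 10 R8 arrays, so the sizes of its effects cannot be set against each other. A test that does not pass does not show that these effects are equal.

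**Figure D3:**
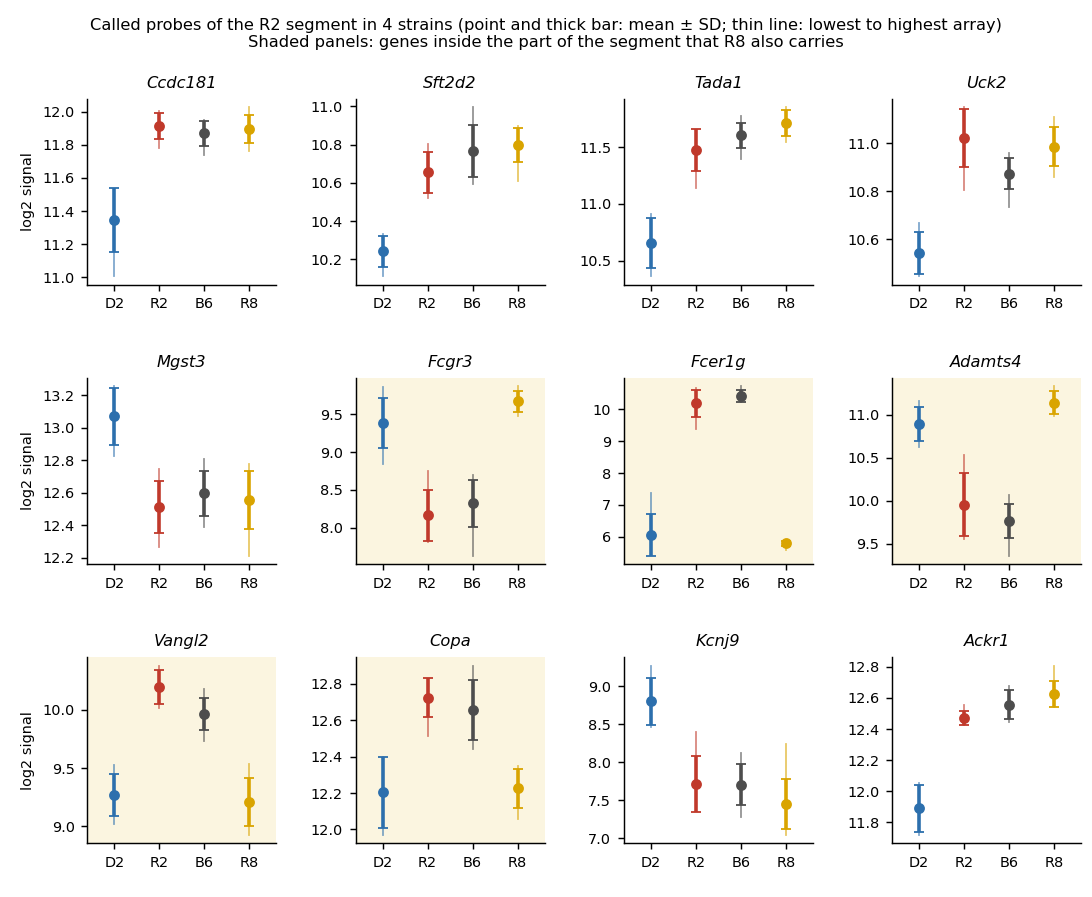
Mean ± SD (point and thick bar) and range over arrays (thin line) of the log2 signal in D2 and R2 (6 arrays each) and B6 and R8 (10 arrays each), normalized together, for the 12 segment probes; shaded panels are genes of the stretch that R8 also carries. In shaded panels R8 sits with D2, as for Fcer1g at 5.79 and 6.06, and in the others it sits with B6 and R2, as for Ackr1 at 12.63, 12.56 and 12.47.

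Few probes that could not be placed in the segment passed. Of the 18 calls 6 were of this kind, and they came from Bex4 (on both of its probes), Ccno, Trappc5 and a pair of probes without a gene or position, which may lie in or outside the segment. The 4 probes with a position elsewhere were higher in R2. Bex4 (chrX:136138996-136140443), a member of the brain-expressed X-linked family, had log2 signals of 11.76, 11.91 and 11.94 in R2 and 11.28, 11.46 and 11.59 in D2 on its brighter probe. All R2 arrays were above all D2 arrays on both probes, and the differences were 0.42 and 0.53 (limma adjusted p = 0.0171 and 0.0454). B6 and R8, at 11.80 and 11.81 on the first probe, were close to R2 (11.90) and above D2 (11.47) in the joint normalization. In the fits that left out 1 array, the 2 probes passed in 6 and 1 of 12.

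Ccno (chr13:112987802-112990778), a cyclin-like protein needed for making the basal bodies of multiciliated cells, read 8.20, 8.43 and 8.66 in R2 and 7.48, 7.84 and 8.21 in D2. Of the 6 R2 arrays 5 lay above all D2 arrays (0.60, limma adjusted p = 0.0454), and the probe was detected in 6 R2 arrays and 2 D2 arrays. Trappc5 (chr8:3676477-3680921), a subunit of the TRAPP tethering complexes of vesicle transport, read 9.03, 9.28 and 9.46 in R2 and 8.50, 8.68 and 9.08 in D2, with overlap (0.55, adjusted p = 0.0454). Each passed in only 2 of the 12 fits without 1 array. Of the probes without a mapped gene, 1 was lower in R2 (ILMN_1256907, −1.07, adjusted p = 0.00362) with R2 replicate 3 nearest to D2, and the other was higher (ILMN_2642681, 0.45, adjusted p = 0.0164). The first had means of 9.05 in R2, 9.00 in B6 and 9.09 in R8 against 10.11 in D2, the pattern of the segment genes beyond the stretch of R8. The counts not placed in the segment without R2 replicate 3, without D2 replicate 1 and without both were 8, 3 and 7.

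Of the probes not placed in the segment 287, 137 higher and 150 lower, reached an unadjusted p under 0.01, where the threshold alone would give 113.97. Those with a named gene stood for 217 genes, 111 higher and 106 lower, close to even at this threshold. The balance over probes moved with the processing. It was 151 higher and 208 lower with the replicate number as a block, and 329 and 252 in 1 fit over the 4 strains. Apart from the Y chromosome, with 0 of 3 genes, the chromosomes held between 1.41% (chromosome 4) and 4% (chromosome 7) of their genes at this threshold. After the called genes the smallest p-values belonged to Atf5, a stress-response transcription factor (0.47, limma adjusted p = 0.0612), Ubn2, a histone chaperone subunit (−0.42, 0.0612), Ano2, a calcium-activated chloride channel (−0.34, 0.077), and Slc7a3, a transporter of cationic amino acids (0.45, 0.0967). Among the other genes with the smallest p-values were Itpka, an inositol trisphosphate kinase of dendritic spines (0.31), Cort, the neuropeptide cortistatin (0.56 and 0.70 on its 2 probes), Smg6, a factor of nonsense-mediated decay (0.42), and Pias4, a SUMO ligase (−0.25). Higher values were also measured for the zinc finger genes Zfp941 (0.44) and Zkscan6 (0.36), Dap (0.40), Tafa1 (0.39), Leng9 (0.33), Akap2 (0.32) and Selenom (0.27), and lower ones for 2310022A10Rik (−0.54) and Slc35f4 (−0.43).

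Groups of genes with related function were described over 46 lists by counting members with an unadjusted p under 0.05. Over all 8110 named genes outside the segment 533 (6.57%) were higher and 457 (5.64%) lower at that level, and the median difference was 0.006. A list was said to lean where at least 3 members reached it and at least 3 in 4 of those lay on one side. By this rule 11 lists leaned, 9 toward higher and 2 toward lower values in R2. Of the 11, 6 also leaned with blocks of 8 table columns, 6 without D2 replicate 1 and 4 under both. Apart from Ccno and Bex4, 0 of the members named below passed the adjusted test, so these are descriptions of small differences. The lists were chosen with earlier results of these data known.

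**Figure D4:**
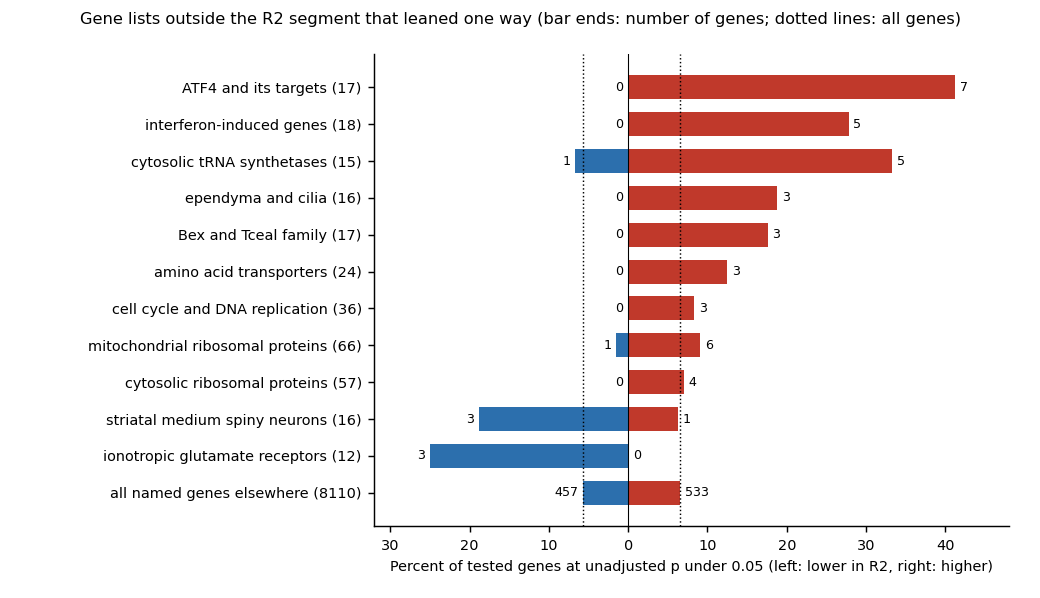
Share of the tested genes of each leaning list, in percent, with an unadjusted p under 0.05 and a higher (right, red) or lower (left, blue) level in R2; numbers at the bar ends count genes, numbers in parentheses the genes tested, and dotted lines give the shares over all 8110 named genes outside the segment. ATF4 and its targets have the longest bar, 7 of 17 genes (41.2%) against 6.57%.

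ATF4 and its targets leaned most. ATF4 is the transcription factor whose translation rises when amino acids are scarce or the endoplasmic reticulum is stressed, and it switches on genes for making and importing amino acids. Of 17 tested members 7 (41.2%) were higher in R2 and 0 lower, with a median of 0.142. The list leaned in 13 of 13 alternative settings and in all 12 fits without 1 array. Atf4 itself read 10.28, 10.78 and 10.94 in R2 and 10.19, 10.46 and 10.62 in D2 (0.31, unadjusted p = 0.0127). Replicate 3 was the lowest R2 array, and the other R2 arrays were above all D2 arrays.

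Of the targets, 3 with replicate 3 as the lowest R2 array are given by array. Asns, asparagine synthetase, read on its brightest probe 14.04, 14.31 and 14.38 in R2 and 13.94, 14.00 and 14.06 in D2 (0.26, unadjusted p = 0.0023), and its other probes differed by 0.29 (p = 0.0276) and 0.13 (p = 0.258). Chac1, which breaks down glutathione, read 11.26, 11.78 and 11.99 in R2 and 11.25, 11.40 and 11.47 in D2 (0.37, p = 0.00255). Mthfd2, of the mitochondrial folate cycle, read 7.72, 8.53 and 8.71 in R2 and 7.27, 8.02 and 8.23 in D2 (0.51, p = 0.0116). In each of these genes 5 of the 6 R2 arrays lay above all D2 arrays, and replicate 3 was the exception. In Aldh1l2, another member (0.30), it was replicate 1 that stood apart from the other R2 arrays, and Slc7a11 (−0.15), Vldlr (−0.04) and Nupr1 (0.01) were not among the genes higher in R2. Without R2 replicate 3 the differences were 0.40 for Atf4, 0.47 for Chac1 and 0.65 for Mthfd2. Leaving out the lowest R2 array widens a difference by construction, so these values are a description only. The mean of the list, taken per array relative to the average, was 0.0947 to 0.136 in the other R2 arrays, −0.0963 in R2 replicate 3 and −0.219 to −0.0216 in D2.

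Amino acid handling beyond ATF4 gave fewer genes. Of 15 tested cytosolic aminoacyl-tRNA synthetases, which load amino acids onto their tRNAs, 5 were higher and 1 lower, with a median of 0.153. Mars1 (0.30, unadjusted p = 0.00105) and Gars (0.26, p = 0.00433), for methionine and glycine, were above all D2 arrays in each R2 array, while a second probe of Mars1 read 0.13 (p = 0.346). Iars (0.18), Aars (0.15) and Tars (0.20) were also higher, and Eprs was lower (−0.26). With blocks of 8 table columns 2 members were higher and 0 lower. Of 24 amino acid transporters 3 were higher and 0 lower, namely Slc7a3, Slc7a5 (0.40, p = 0.00185), which carries large neutral amino acids, and Slc6a9 (0.20), a glycine transporter. The median of the transporters was 0.006, the same as over all genes. Slc7a3 and Slc7a5 were also among the 14 probes for which R2 minus D2 differed from B6 minus R8, by 0.49 and 0.53. The list leaned in 7 of the 12 fits without 1 array, with 2 members in the blocks of 8 arrays by number.

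**Figure D5:**
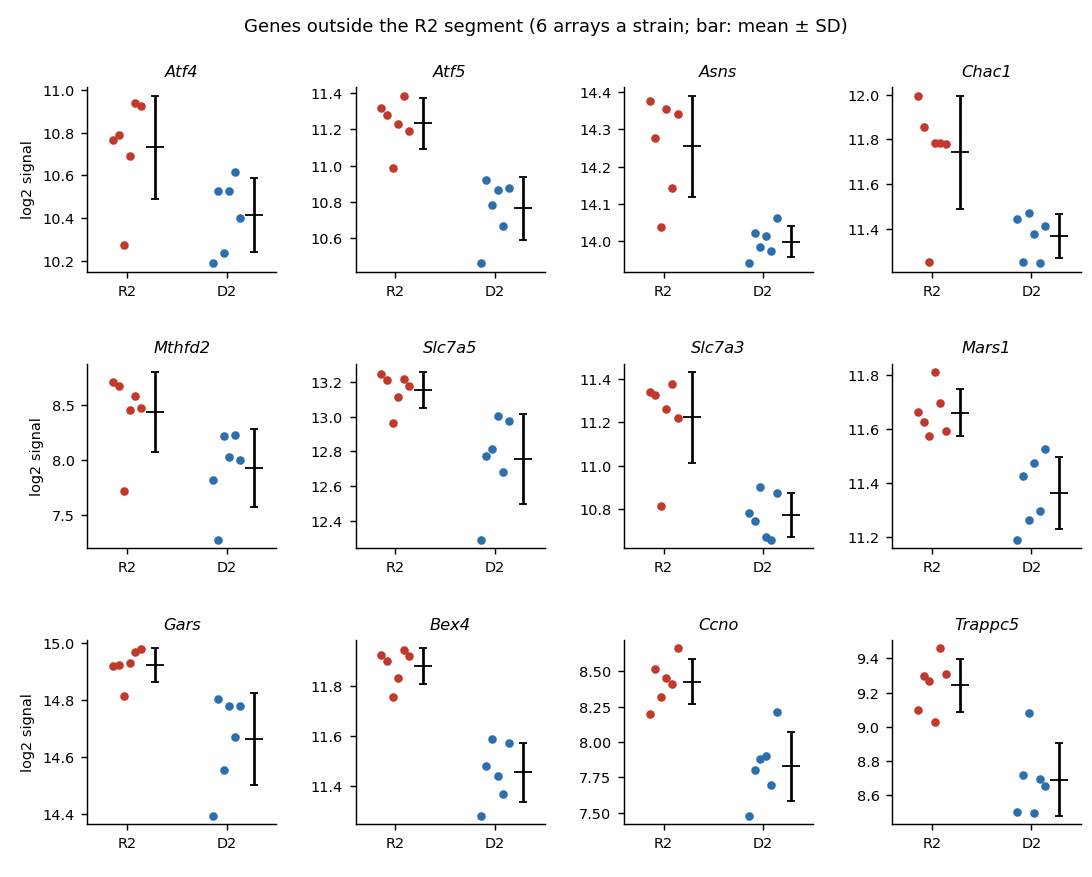
Log2 signal of 12 genes outside the segment in each of the 6 R2 (red) and 6 D2 (blue) arrays, with the mean ± SD beside the points; the axes do not start at 0. For Atf4, Asns, Chac1, Mthfd2, Slc7a5 and Slc7a3 the R2 array within the D2 range is replicate 3, and the other 5 lie above all D2 arrays.

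ATF4 binds, with a C/EBP partner, an element that can be written TGATGNAA. Of the genes of these lists that were higher in R2, 5 held the element before the start, and these are shown as stretches of 100 bases (RefSeq, GRCm38.p6), with the element in capitals on either strand. They lie at chr6:7693210-7693309, minus strand (Asns), chr2:119351022-119351121, plus strand (Chac1), chr6:55037901-55038000, plus strand (Gars), chr15:11399659-11399758, minus strand (Tars), and chr8:111033692-111033791, plus strand (Aars).
Asns: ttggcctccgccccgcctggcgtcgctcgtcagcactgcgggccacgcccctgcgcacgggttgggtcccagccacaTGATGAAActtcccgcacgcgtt
Chac1: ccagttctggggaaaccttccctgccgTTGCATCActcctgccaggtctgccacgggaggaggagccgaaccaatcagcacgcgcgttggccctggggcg
Gars: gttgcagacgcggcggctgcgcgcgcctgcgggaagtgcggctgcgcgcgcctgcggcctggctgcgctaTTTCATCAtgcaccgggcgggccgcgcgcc
Tars: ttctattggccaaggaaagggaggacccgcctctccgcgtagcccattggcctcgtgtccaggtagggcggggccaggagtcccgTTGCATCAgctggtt
Aars: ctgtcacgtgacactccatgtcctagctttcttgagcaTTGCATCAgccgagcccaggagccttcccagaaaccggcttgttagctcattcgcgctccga
The element was searched on both strands in 300 bases around each start, and 3.97% of all 32851 promoters held it. Of the ATF4 list, 15 of 17 tested genes had a promoter in the table and 5 held the element, but only 2 of these 5 were among the genes higher in R2. Of the tRNA synthetases, 11 had a promoter and 4 held the element, and all 4 of these (Gars, Iars, Aars and Tars) were among the 5 that were higher. For the transporters the count was 3 of 18, with none of the 3 among the genes higher in R2. A match of letters is not a binding site, and binding was not measured.

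The levels of these genes in B6 and R8 did not follow one pattern. Slc7a5 had means of 13.17 in R2, 12.77 in D2, 13.17 in B6 and 13.30 in R8, so D2 was the lowest. Asns was likewise lowest in D2, at 14.02 against 14.26, 14.22 and 14.22. Chac1, by contrast, was highest in R2, at 11.76 against 11.39 in D2, 11.22 in B6 and 11.27 in R8. Atf4 read 10.75 in R2 and 10.44 in D2 against 12.21 in B6 and 12.17 in R8, a gap between backgrounds that exceeds the R2 against D2 difference.

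Genes for ribosomes leaned higher by the rule, but at shares near those over all genes. Of 57 cytosolic ribosomal proteins 4 were higher and 0 lower (Rpl14, 0.42, Rplp0, 0.24, Rps25, 0.18, and Rps15a, 0.16), with a median of 0.036. This is 7.02%, against 6.57% of all genes. Of 66 mitochondrial ribosomal proteins 6 were higher (9.09%) and 1 lower (1.52%), with a median of 0.057, led by Mrpl2 (0.38, unadjusted p = 0.00107), which was above all D2 arrays in each R2 array. Cell cycle and DNA replication genes had 3 of 36 higher and 0 lower, with a median of 0.037. This share, 8.33%, was also near that over all genes. The 3 were Pold1 (0.38), the catalytic subunit of DNA polymerase delta, Cdt1 (0.31), which licenses origins, and Cdkn1a (0.19), an inhibitor of cyclin-dependent kinases. With no filter on dim probes 3 members were higher and 3 lower, so the list did not lean in that setting.

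Interferon-induced genes were higher in 5 of 18 cases and lower in 0, with a median of 0.118. Ifi27l2a, the largest, read 8.29, 9.32 and 9.63 in R2 and 7.91, 8.31 and 9.31 in D2 (0.82, unadjusted p = 0.00347). The strains overlapped, with R2 replicate 1 far below the other R2 arrays. Oasl2 (0.36), Rsad2 (0.35), Gbp2 (0.30) and Ifi27 (0.27) made up the rest. Only 2 members reached the level without D2 replicate 1 or without D2 replicate 6, so the lean rested on single D2 arrays.

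In the Bex and Tceal family 3 of 17 genes were higher and 0 lower, and beside Bex4 these were Bex2 (0.28, unadjusted p = 0.0013, above all D2 arrays in each R2 array) and Bex1 (0.46, p = 0.0147). Genes of ependyma and cilia had 3 of 16 higher, Ccno, Spag6l (0.20) and Dnaic1 (0.19), but that list leaned in only 3 of 13 settings. Toward lower values leaned the ionotropic glutamate receptors and the markers of striatal medium spiny neurons. Of 12 ionotropic glutamate receptor genes 3 were lower and 0 higher, with a median of −0.107, and these were Cacng2 (−0.35), which traffics AMPA receptors, Gria4 (−0.24), an AMPA receptor subunit, and Grik5 (−0.22), a kainate receptor subunit. That lean was seen in 9 of 13 settings and in 5 of the 12 fits without 1 array, with 1 member left without D2 replicate 1 or without R2 replicate 1. Markers of striatal medium spiny neurons had 3 of 16 lower, Syndig1l (−0.43), Gng7 (−0.25) and Ido1 (−0.24), and 1 higher, Pde10a (0.22).

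Many other lists showed no lean. Of 31 complex I genes 1 was higher and 0 lower, and of 38 genes of complexes II to V 1 was higher and 0 lower. Microglial genes, of interest because Fcer1g and Fcgr3 are expressed there, had 1 of 23 higher and 0 lower. The partners of the cis genes did not lean either. Of 15 SAGA subunits, the complex of Tada1, 1 was higher, and of 9 planar cell polarity genes, the pathway of Vangl2, 1 was lower. Coatomer genes, the coat of Copa, were listed together with those of TRAPP, a separate tethering complex. Of these 15 genes 2 were higher, among them Trappc5, and 1 lower. Endoplasmic reticulum chaperones and genes of the unfolded protein response, which share a trigger with ATF4, had 2 of 20 higher and 1 lower.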

How the data were processed

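Expression was measured in whole-brain total RNA of 32 naïve adult males on a bead array, the Illumina Mouse Ref8 (second version). The authors deposited a table of non-normalized probe intensities with a detection p-value for each. They also deposited a table of processed values, which was taken to the log2 scale and served here as an alternative. The 6 R2 and 6 D2 arrays were normalized together with the neqc function of limma 3.58.1 in R 4.3.3 (offset 16), which infers negative-control levels from the detection p-values. The 11455 probes with a detection p-value under 0.01 in at least 6 arrays were tested with the moderated test of limma (lmFit, eBayes), and p-values were adjusted by Benjamini-Hochberg across them, with a threshold of 0.05. On simulated data with this number of arrays, limma recovered 69 of 100 probes changed by 0.5 on the log2 scale. It recovered 100 of 100 changed by 1, with 4 false calls. The simulated noise was independent between probes and arrays and held no outlying array or block. These counts therefore do not give the rates in the real arrays, which held such arrays. The number of arrays limits the precision.

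Probes were named from the platform annotation (23978) or a table of the study (19), and 1700 had no gene name. Genes were placed by RefSeq coordinates on GRCm38.p6. A gene with several probes was represented by its brightest. Named are all tested genes of the segment that the text describes, the 3 nearest neighbours on each side, all genes that passed, genes among the 20 smallest p-values elsewhere, and up to 5 members per list by p, with further list members given after their values were seen. The bound for Fcer1g sets the R2 mean against the lowest detected signal of each D2 array, or the probe's own signal where higher. The values of 1 further gene of the segment are not reported here. The members and lists were chosen with earlier results of these data known. Each array is a separate animal according to the methods.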

Additional observations from a re-analysis of the deposited data

Results flagged for a closer look

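Several single arrays lay far from the other 5 of their strain. Such a gap is expected by chance in about 1 in 20 groups, and 260 were examined, of which 22 showed one. For whole arrays, D2 replicate 1 had a mean correlation of 0.9765 and a median absolute deviation of 0.224, and R2 replicate 1 had a first-component score of −0.946 against −7.37 to −6.69 in the other R2 arrays. R2 replicate 3 stood apart in Fam78b (8.39), Copa (12.50), Sdhc (13.37), the unnamed probe ILMN_1256907 (9.68), Slc7a3 (10.81), Chac1 (11.26), Mthfd2 (7.72) and Atf4 (10.28). R2 replicate 1 did so in Tafa1 (9.19), Aldh1l2 (9.90), Ifi27l2a (8.29) and Ifi27 (12.73). Other R2 arrays did so in Gria4 (replicate 2, 9.27), a probe of Nme7 (replicate 6, 10.65) and Atp1b1 (replicate 4, 16.04). In D2 the values were 11.20 for Cadm3 and 10.84 for Mrps9 in replicate 1, 7.35 for Fcer1g in replicate 4 and 9.36 for 2310022A10Rik in replicate 2. All are log2 signals.

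The difference between R2 minus D2 and B6 minus R8 passed limma's adjusted test for 14 probes. In the segment they were Ackr1 (0.65), Tada1 (0.93), Uck2 (0.59), Ccdc181 (0.59), Sft2d2 (0.44), Mgst3 (−0.60) and Kcnj9 (−1.33). Placed outside it were Bex4 (0.65 and 0.43), Slc7a5 (0.53), Slc7a3 (0.49) and Bok (0.54), an apoptosis regulator. The unnamed probes ILMN_1256907 (−0.97) and ILMN_2642681 (0.37) have no position. For the segment genes, which R8 does not carry as D2 alleles, the value is mostly R2 minus D2 but also holds B6 minus R8. Bok lies on chromosome 1 outside the segment, and its mean was 12.6 in R2 against 12.1 in D2, 12.1 in B6 and 12.2 in R8.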

How the results depend on the processing

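Of the 18 calls, Fcer1g, Vangl2 and Ackr1 passed under each alternative that tested them, including each fit without 1 array. Fcer1g was not tested where detection in all 12 arrays was asked. A plain two-sample comparison gave 8 calls after adjustment, 6 in the segment and 2 elsewhere. With blocks of 8 arrays by array number there were 9 calls, 7 in the segment and 2 elsewhere, and with blocks of 8 table columns, chosen after seeing the data, 10 calls and 2 elsewhere. One fit over the 4 strains gave 62 calls and 44 elsewhere. Probes elsewhere with an unadjusted p under 0.01, 287 in the report, numbered 581 in that fit, 168 with array-number blocks and 153 with table-column blocks. The cause of these shifts was not tested. Leaving out each array in turn gave 9 (without R2 replicate 6) to 21 (without R2 replicate 3) calls, 8 to 13 in the segment and 1 to 8 elsewhere, 193 (without R2 replicate 5) to 438 (without D2 replicate 6) probes elsewhere at an unadjusted p under 0.01, and 12 to 17 probes for the difference between backgrounds. Calls also numbered 11 without R2 replicate 2 or 5 and 10 without D2 replicate 5. Without both D2 replicate 1 and R2 replicate 3, a choice made after seeing the data, 20 passed. None of the 18 called probes changed direction. Probes elsewhere at an unadjusted p under 0.01 were 137 higher and 150 lower in the report and 159 and 122 in the plain comparison.

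Replicate numbers were not taken as pairs, since the labels name no shared animal, litter or day. Deviations of same-numbered arrays correlated at over 0.1 in 4 of 6 (−0.0798 to 0.189). Arrays of unlike number were not compared in this way, so these values do not settle whether the numbers pair the strains. With the replicate number as a block, 13 probes passed, 8 in the segment and 5 elsewhere, and 10 for the difference between backgrounds.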

Other observations

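Pituitary hormones varied between arrays. Prl was detected in 0 R2 arrays and 2 D2 arrays, with a highest D2 signal of 12.2 on the log2 scale, and Gh in 1 and 3, with a highest D2 signal of 12.8. Means in the joint normalization were 6.01 in R2, 8.19 in D2, 7.02 in B6 and 7.69 in R8 for Prl. For Gh they were 6.46, 8.73, 7.40 and 7.96.

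Over all 25697 probes, 33 were detected in at least 5 arrays of one strain and at most 1 of the other. Of these, 32 were detected in D2 and 1, Fcer1g, in R2, and 2 lay in the segment (Fcer1g and Kcnj9). Apart from these 2 genes, none of those that were tested passed the adjusted test. Many had signals near the detection limit in both strains, such as Sh2d3c (means of 7.87 in R2 and 7.95 in D2) and Bmp7 (7.99 and 8.12). A count of detected arrays therefore does not show that a transcript was absent in R2.

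Genes with known B6 and D2 variants outside the segment read nearer to D2 than to B6 in R2. Glo1, glyoxalase I, had means of 14.27 in R2 and 14.21 in D2 against 13.28 in B6. Alad, an enzyme of haem synthesis, had 13.55 and 13.51 against 12.12. Myo5a, the motor protein that the dilute coat colour allele disrupts, had 11.22 and 11.40 against 11.83. Of these 3 genes only Myo5a differed between R2 and D2 at an unadjusted limma p under 0.05, and R2 lay further from B6 than D2 did.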
